A study of Homo sapiens with 6 samples.

Results

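The replication-dependent histone genes encode the linker histone H1 and the core histones H2A, H2B, H3 and H4 that package newly copied DNA. They were taken from the deposited table by symbol, as the protein-coding genes named H1-1 to H1-6 and the numbered H2AC, H2BC, H3C and H4C genes. The rule found 69 of the 62703 gene IDs in the table. They divide into 6 genes for H1, 17 for H2A, 18 for H2B, 13 for H3 and 15 for H4. It used no measured value.

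The cells were MNNG/HOS Cl #5, a human osteosarcoma line derived from HOS cells by chemical transformation, with the genotype given as WT. In the 3D group, 3 libraries (replicates 1 to 3) came from cells seeded in demineralized bone matrix scaffold, and in the 2D group 3 libraries came from cells in flat culture, all taken at day 7. Both groups had the same high sugar DMEM with 4 mM L-glutamine, 10% fetal bovine serum and 1% penicillin-streptomycin, at 37 °C and 5% CO2, and no drug is named for either. Poly(A)-enriched RNA extracted with TRIzol was sequenced, and the deposited values are FPKM, that is fragments scaled to gene length and library total. The labels do not say whether the 3 samples of a group were separate cultures, so p-values measure only the spread between these samples, which may be technical.

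Histone genes of this kind are switched on in S phase, when DNA is copied, and their mRNAs are unusual. They end in a short stem-loop that is bound by SLBP, the stem-loop binding protein, and carry no poly(A) tail. Some of the genes can also give polyadenylated mRNA when transcription runs past the stem-loop, as happens in differentiated cells and in some cancers. Libraries made by poly(A) enrichment therefore hold only part of the histone mRNA of a cell, and a difference between groups in these values can be a difference in all histone mRNA or in the share that carries a tail. These cannot be told apart here. In bulk RNA, fewer cells that make a transcript and less of it per cell cannot be told apart either.

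The stem-loop was found in a GENCODE 29 transcript model of 31 of the 69 members, by a 16-base pattern of a 6-base-pair stem with a 4-base loop on the transcribed strand. The same pattern occurs in 50 of 19702 protein-coding genes, or 0.254%. The stem-loops of 8 members that the results turn on are shown because they mark where the tail-less mRNA ends, with the 16 bases of stem and loop in capitals and 5 bases on each side, 5′ to 3′ as transcribed, read from GENCODE 29 on GRCh38.
H2AC18, chr1:149842218-149842243, minus strand: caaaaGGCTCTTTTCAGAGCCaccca
H2AC19, chr1:149851569-149851594, plus strand: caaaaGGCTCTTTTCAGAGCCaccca
H2AC25, chr1:228457364-228457389, minus strand: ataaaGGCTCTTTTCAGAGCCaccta
H2BC21, chr1:149886183-149886208, minus strand: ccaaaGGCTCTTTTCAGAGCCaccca
H2BC5, chr6:26158582-26158607, plus strand: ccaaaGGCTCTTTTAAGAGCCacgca
H3C10, chr6:27810511-27810536, plus strand: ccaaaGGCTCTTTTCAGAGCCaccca
H4C14, chr1:149833027-149833052, plus strand: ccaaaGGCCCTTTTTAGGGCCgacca
H4C9, chr6:27139649-27139674, plus strand: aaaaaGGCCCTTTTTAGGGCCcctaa
The classes differ in these letters. The 8 H4 genes with a stem-loop have GGCCC at the start of the stem, and the 23 genes of H2A, H2B and H3 have GGCTC. H2AC11 was the only one of those 23 whose stem starts with GGCTC and ends in GGGCC. H1-2 and H2BC12, both among the most abundant members, have GENCODE 29 models that end at the stop codon, so these models hold no stem-loop to show. For 23 members a model reaches more than 100 bases past the stem-loop, as a transcript that reads through it would.

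Of the 69 members, 66 had reads and H2AC1, H2BC1 and H4C7 were at 0 in all 6 libraries. Together the members held 523.7, 442.2 and 413.5 FPKM in the 3D libraries, against 824.5, 787.6 and 688.5 FPKM in the 2D libraries. All 3D libraries were below all 2D libraries, and the ratio of the means was -0.74 on the log2 scale. These sums came from 4927 to 5502 reads per 3D library and 8139 to 9468 reads per 2D library, or 0.033 to 0.0413% of the reads in 3D and 0.0573 to 0.0674% in 2D. At this depth 1 read in a gene model of 1 kb gave 0.0609 to 0.0747 FPKM, and more in a shorter model.

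The minimum for a test, 1 FPKM or more in 3 or more libraries, was met by 40 members, which were tested within a limma fit of all 12843 genes that met it. At a limma adjusted p under 0.05, 8 members rose and 14 fell in 3D, while 33.3% of all genes tested rose and 18.1% fell, or 51.4% in either direction. The median log2 change was -0.18 over the 40 members tested and 0.14 over all genes tested. The groups did not overlap for 15 members lower and 8 members higher in every 3D library, which 21.9% and 39.0% of all tested genes did. H2BC13 and H4C4 passed the minimum through the 3D group alone, so counts over the tested members carry that choice with them. The 29 untested members held 15.3, 11.6 and 14.0 FPKM in 3D, against 8.95, 9.08 and 8.15 FPKM in 2D, from 1088 reads in all. Of these 29, 6 were higher in every 3D library and 0 were lower in every 3D library. Of all genes tested, 39.0% and 21.9% did so, and the shares over untested genes were not worked out. Among the 6, H2BC14 and H4C13 held only 11 and 9 reads in all 6 libraries.

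Of the 12843 genes tested, 532 (4.14%) were called lower by at least 1 on the log2(FPKM + 1) scale, and 6 of the 40 members were among them, namely H1-2, H2AC18, H2AC19, H2AC25, H2BC21 and H4C9. No member was called higher by 1 or more on that scale. The scaling of the libraries bears on the split between rises and falls. With median-ratio factors in place of the FPKM totals, the median of all genes moved down by 0.14 on the log2 scale, 3148 genes rose and 3148 fell (24.5% of those tested each way), so that the share of rises among calls was 50.0% rather than 64.7%, and among the members 3 rose and 15 fell.

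**Figure D1:**
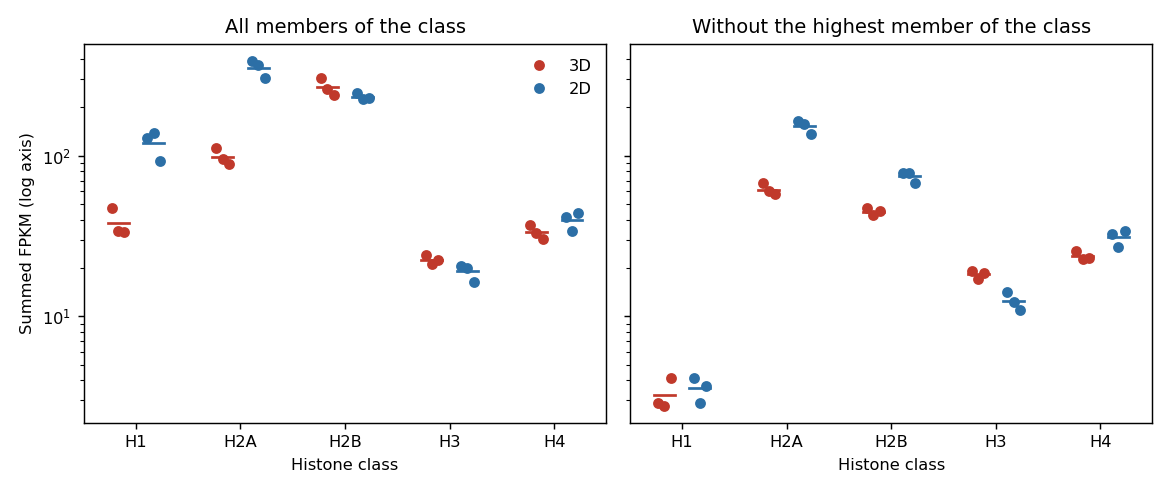
Summed FPKM of each histone class per library on a log axis, 3D (red) left of 2D (blue), with the line at the group mean; the left panel holds all members of a class and the right panel leaves out the member with the highest mean. The H1 and H2A sums are lower in every 3D library, the H2B sums overlap until H2BC12 is left out, and the H1 sums overlap once H1-2 is left out.

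The 5 classes did not move alike. H2A and H1, summed over all members, were lower in every 3D library, H3 was slightly higher in every 3D library, and the sums of H2B and H4 overlapped between groups. The member with the highest mean held from 18.8% of the sum in 3D (H3C10) and 22.2% in 2D (H4C14) up to 91.5% in 3D and 97.0% in 2D (H1-2). A sum over members has no test here, and the values stand as a description. The counts of calls given for each class below read against 33.3% of all genes tested that rose and 18.1% that fell.

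Linker histone H1 binds the DNA that enters and leaves the nucleosome. Its class sum was 38.2 ± 7.83 FPKM in 3D and 120.2 ± 23.8 FPKM in 2D (SD, n = 3 each), a log2 ratio of -1.65. Nearly all of it was H1-2 (chr6:26055740-26056470, minus strand; RefSeq positions on GRCh38.p14 here and in what follows), which held 91.5% of the sum in 3D and 97.0% in 2D. H1-2 had 44.4, 31.3 and 29.2 FPKM in the 3D libraries, against 125.2, 135.2 and 89.5 FPKM in the 2D libraries. Every 3D library was below every 2D library, and H1-2 fell by 1.71 ± 0.21 on the log2(FPKM + 1) scale (SE, limma adjusted p = 0.000884). It ranked 731st of all genes by mean FPKM in 3D and 231st in 2D.

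The other H1 genes were low in both groups. H1-4 had 0.76, 1.38 and 1.86 FPKM in 3D, against 2.34, 1.48 and 1.69 FPKM in 2D, and the groups overlapped (limma adjusted p = 0.241). H1-3 averaged 0.803 FPKM in 3D and 0.765 FPKM in 2D, and H1-5 averaged 0.806 FPKM in 3D and 0.683 FPKM in 2D, both under the minimum for a test. H1-1 and H1-6, the testis-specific H1, held 10 and 9 reads in all 6 libraries together. Without H1-2 the class sum was 3.26 ± 0.746 FPKM in 3D and 3.57 ± 0.634 FPKM in 2D, with overlapping groups and a log2 ratio of -0.13.

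H2A pairs with H2B in the dimers that flank the H3 and H4 tetramer of the nucleosome. The H2A genes summed to 98.4 ± 11.7 FPKM in 3D and 354.4 ± 43.0 FPKM in 2D, a log2 ratio of -1.85, the lowest of the 5 classes. Of 11 members tested, 1 rose, 4 fell and 6 did not pass. H2AC19 had 44.2, 34.9 and 31.4 FPKM in the 3D libraries, against 224.2, 211.5 and 168.6 FPKM in the 2D libraries. The groups were far apart, and H2AC19 fell by 2.42 ± 0.16 (log2, limma adjusted p = 0.000242). H2AC18 had 17.7, 15.2 and 15.0 FPKM in 3D, against 106.3, 101.0 and 83.1 FPKM in 2D, and fell by 2.52 ± 0.12 (limma adjusted p = 0.000185). By mean FPKM, H2AC19 ranked 679th in 3D and 148th in 2D, and H2AC18 ranked 1882nd in 3D and 261st in 2D.

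H2AC18 (chr1:149842218-149842750, minus strand) and H2AC19 (chr1:149851061-149851594, plus strand) are copies that face each other. Their promoters, taken here together with the first bases past the start, are identical over 299 of 299 bases at an offset of 1. Their coding sequences are identical over all 390 bases, and their printed stem-loops have the same 26 letters. Reads from either gene can therefore match both, and the way such reads were counted is not given in the sources used here. H2AC19 had 2.51, 2.29 and 2.1 reads for each H2AC18 read in 3D, and 2.11, 2.1 and 2.03 in 2D, so the pair kept nearly the same proportion in every library. The gene lengths behind the FPKM values, 533 bases for H2AC18 and 534 bases for H2AC19, equal the RefSeq spans, and both spans end 5 bases past the stem-loop. The fall of this pair was thus counted over the body of the mRNA up to the stem-loop.

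H2AC25, an H2A gene outside the large clusters (chr1:228457364-228457873, minus strand), had 8.54, 7.22 and 7.9 FPKM in 3D, against 19.9, 17.7 and 16.3 FPKM in 2D. All 3D values lay below all 2D values, with a fall of 1.09 ± 0.11 (log2, limma adjusted p = 0.000479). H2AC8 had 2.89, 2.66 and 1.41 FPKM in 3D, against 6.7, 7.06 and 3.38 FPKM in 2D, and fell by 0.99 ± 0.28 (limma adjusted p = 0.0221), a call lost without 3D replicate 3 and without 2D replicate 1 or 2 (limma adjusted p = 0.0616, 0.0718 and 0.0682). Of the tested H2A genes only H2AC17 was called higher, with 6.29, 5.06 and 5.25 FPKM in 3D, against 3.05, 4.65 and 3.45 FPKM in 2D. Its change was 0.48 ± 0.15 (limma adjusted p = 0.0293), and the call was lost without 3D replicate 1 or 3 and without 2D replicate 1 or 3 (limma adjusted p = 0.0817, 0.0571, 0.0873 and 0.0775) and with median-ratio factors (0.116). H2AC17 shares exon bases with H3C12 on the same strand, so their reads cannot be told apart there. H2AC11, the fourth by level, had 6.67, 8.53 and 6.3 FPKM in 3D, against 6.88, 4.3 and 7.95 FPKM in 2D, with overlapping groups and a log2 change of 0.17 ± 0.21 (limma adjusted p = 0.523), which was -0.05 without 2D replicate 2.

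H2B completes the dimer with H2A, and in the H2B genes the most abundant member went the other way from the next in line. The class summed to 267.2 ± 33.5 FPKM in 3D and 233.2 ± 9.84 FPKM in 2D, with overlapping groups and a log2 ratio of 0.20, which was 0.01 with median-ratio factors and -0.24 when reads were summed without division by gene length. H2BC12 (chr6:27138293-27146858, minus strand), the most abundant of all members, held 83.2% of the sum in 3D and 68.0% in 2D. Without H2BC12 the sum was 44.9 ± 2.2 FPKM in 3D and 74.6 ± 6.09 FPKM in 2D, lower in every 3D library, with a log2 ratio of -0.73. Of 11 H2B members tested, 3 rose, 5 fell and 3 did not pass.

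H2BC12 had 256.9, 216.2 and 193.5 FPKM in the 3D libraries, against 166.4, 148.3 and 161.1 FPKM in the 2D libraries. Every 3D library was above every 2D library, the change was 0.48 ± 0.13 on the log2 scale (limma adjusted p = 0.0178), and the gene ranked 103rd by mean FPKM in 3D and 180th in 2D. The call was lost with median-ratio factors (change 0.30, limma adjusted p = 0.0869), without 3D replicate 2 (0.0513) and without 2D replicate 2 (0.0655). H2BC13 had 1.33, 2.57 and 1.89 FPKM in 3D, against 0.941, 0.486 and 0.466 FPKM in 2D, from 50 reads in all, and rose by 0.84 ± 0.18 (limma adjusted p = 0.00837). H2BC13 met the minimum for a test through the 3D group alone, so its p-value carries that choice with it. H2BC17 had 5.76, 4.5 and 4.69 FPKM in 3D, against 4.24, 2.97 and 3.15 FPKM in 2D, and rose by 0.43 ± 0.14 (limma adjusted p = 0.0368). Its groups stood close to each other, and the call was lost without 2D replicate 2 or 3 and without any of the 3D libraries (limma adjusted p = 0.0535 to 0.113) and with median-ratio factors (0.126).

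**Figure D2:**
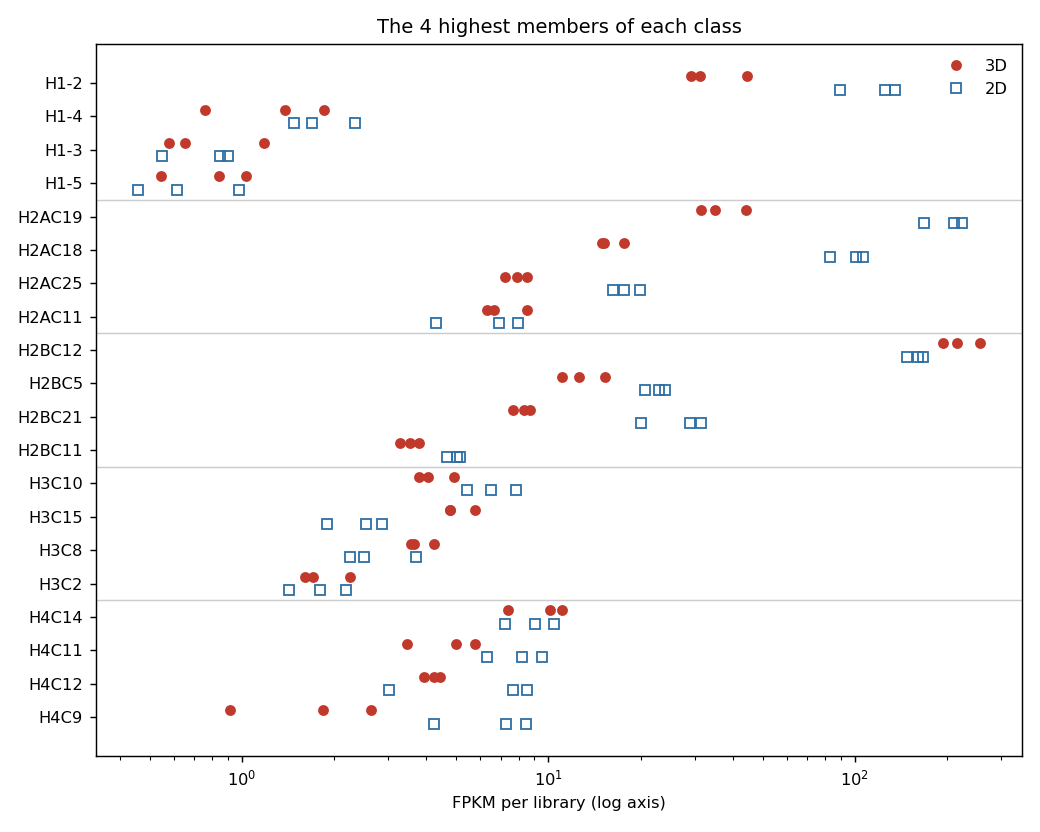
FPKM per library on a log axis for the 4 members of each class with the highest mean, 3D as filled red circles above 2D as open blue squares. H2BC12 is higher in every 3D library, while H1-2, H2AC19, H2AC18, H2AC25, H2BC5 and H2BC21 are lower in every 3D library.

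H2BC21 (chr1:149884459-149886682, minus strand) had 8.33, 7.69 and 8.71 FPKM in the 3D libraries, against 28.9, 31.6 and 20.1 FPKM in the 2D libraries. The groups did not overlap, and H2BC21 fell by 1.57 ± 0.17 (log2, limma adjusted p = 0.000583). H2BC5 had 15.3, 12.6 and 11.1 FPKM in 3D, against 23.0, 20.7 and 24.0 FPKM in 2D, and fell by 0.76 ± 0.13 (limma adjusted p = 0.0029). H2BC11 had 3.78, 3.55 and 3.28 FPKM in 3D, against 5.16, 5.05 and 4.68 FPKM in 2D, and fell by 0.39 ± 0.09 (limma adjusted p = 0.00932). These 3 genes were past the threshold in every setting that tested them.

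H2BC15 averaged 1.15 FPKM in 3D and 2.24 FPKM in 2D and fell by 0.58 ± 0.14 (limma adjusted p = 0.0128). Its exons share bases with those of H2AC15 on the opposite strand, and whether reads were counted by strand is not given in the sources used here, so reads of both genes cannot be told apart there. H2BC4 averaged 3.03 FPKM in 3D and 4.22 FPKM in 2D and fell by 0.37 ± 0.11 (limma adjusted p = 0.031), a call lost when any library but 2D replicate 3 was left out (limma adjusted p = 0.053 to 0.0994).

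H3 and H4 form the tetramer at the core of the nucleosome, and the genes of each class encode nearly the same protein, with 2 distinct translations among 13 H3 genes and 2 among 15 H4 genes. By comparison the H2A genes gave 11 distinct translations of 17, the H2B genes 14 of 18 and the H1 genes 6 of 6. H3 summed to 22.6 ± 1.51 FPKM in 3D and 19.1 ± 2.31 FPKM in 2D, higher in every 3D library, with a log2 ratio of 0.24 that was 0.06 with median-ratio factors. Of 7 H3 members tested, 2 rose, 1 fell and 4 did not pass.

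H3C10, the highest H3 gene, went against the class sum with 4.91, 4.05 and 3.79 FPKM in 3D, against 6.48, 7.82 and 5.44 FPKM in 2D. All 3D values were below all 2D values and H3C10 fell by 0.52 ± 0.14 (limma adjusted p = 0.0191), a call lost without 3D replicate 2 or 3 and without 2D replicate 1 or 2 (limma adjusted p = 0.0598, 0.0616, 0.0501 and 0.0567). H3C15 had 4.76, 4.76 and 5.76 FPKM in 3D, against 2.87, 2.54 and 1.89 FPKM in 2D, and rose by 0.83 ± 0.14 (limma adjusted p = 0.0024). H3C15 has the same coding sequence as H3C14, which averaged 0.718 FPKM in 3D and 0.365 FPKM in 2D, and it shares exon bases with H4C15 on the opposite strand. H3C6 had 1.68, 2.18 and 1.85 FPKM in 3D, against 0.895, 0.716 and 1.13 FPKM in 2D, and rose by 0.60 ± 0.12 (limma adjusted p = 0.00479). Without H3C10 the H3 sum was 18.3 ± 1.14 FPKM in 3D and 12.5 ± 1.61 FPKM in 2D, a log2 ratio of 0.56.

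H3C8 averaged 3.81 FPKM in 3D and 2.82 FPKM in 2D, with overlapping groups and a log2 change of 0.35 ± 0.15 (limma adjusted p = 0.0944). The change passed without 2D replicate 1 (limma adjusted p = 0.0148) but not with any other library left out (0.131 to 0.239). H3C2 averaged 1.86 FPKM in 3D and 1.81 FPKM in 2D, with a log2 change of 0.03 ± 0.14 (limma adjusted p = 0.881) that was -0.09 with median-ratio factors and -0.07 without 3D replicate 3 or 2D replicate 2.

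H4 summed to 33.4 ± 3.21 FPKM in 3D and 40.0 ± 5.22 FPKM in 2D, with overlapping groups and a log2 ratio of -0.26. Of 9 H4 members tested, 2 rose, 3 fell and 4 did not pass. H4C14 was the highest, with 11.1, 10.1 and 7.37 FPKM in 3D, against 9.02, 7.23 and 10.4 FPKM in 2D, and the groups overlapped (change 0.08 ± 0.18, limma adjusted p = 0.715). Its sign turned with median-ratio factors (-0.08), without 3D replicate 1 (-0.03) and without 2D replicate 2 (-0.04). H4C14 has the same coding sequence as H4C15, which averaged 1.88 FPKM in 3D and 2.55 FPKM in 2D. H4C14 also shares exon bases with H3C14 on the opposite strand, so reads of these genes may not be told apart there.

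H4C9 fell furthest in its class, with 2.64, 0.913 and 1.84 FPKM in 3D, against 7.3, 4.23 and 8.46 FPKM in 2D (change -1.46 ± 0.29, limma adjusted p = 0.00582). The groups did not overlap. H4C8 had 1.47, 1.57 and 1.44 FPKM in 3D, against 2.75, 2.23 and 2.72 FPKM in 2D, and fell by 0.51 ± 0.10 (limma adjusted p = 0.00422). H4C11 had 3.46, 5.78 and 5.01 FPKM in 3D, against 8.18, 9.57 and 6.3 FPKM in 2D, and fell by 0.65 ± 0.20 (limma adjusted p = 0.0268), a call lost without 3D replicate 1 or 3 and without 2D replicate 1 or 2 (limma adjusted p = 0.0607, 0.0522, 0.0741 and 0.0837). H4C12, whose coding sequence is identical to that of H4C11, had 4.44, 3.93 and 4.25 FPKM in 3D, against 7.67, 3.02 and 8.5 FPKM in 2D. It did not pass (change -0.41 ± 0.31, limma adjusted p = 0.301), and 2D replicate 2 alone stood below the 3D libraries. Without that library the limma adjusted p was 0.00393 and the change -0.80, which follows from leaving out the 1 library that went the other way. With any other library left out, the limma adjusted p was 0.371 to 0.661.

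2 H4 genes of low level also rose. H4C3 had 2.77, 2.15 and 2.71 FPKM in 3D, against 0.873, 1.8 and 1.73 FPKM in 2D, with a change of 0.54 ± 0.17 (limma adjusted p = 0.0353), lost without 3D replicate 1 or 3 and without 2D replicate 1 (limma adjusted p = 0.0915, 0.0938 and 0.0589). H4C4 had 3.15, 1.26 and 1.06 FPKM in 3D, against 0.526, 0.181 and 0.868 FPKM in 2D, from 40 reads in all, with a change of 0.84 ± 0.29 (limma adjusted p = 0.0469). H4C4 also met the minimum for a test through the 3D group alone, so its p-value carries that choice with it. Its call was lost without 3D replicate 1 or 2 and without 2D replicate 1 or 2 (limma adjusted p = 0.0752, 0.0608, 0.0991 and 0.13), and both calls were lost with median-ratio factors (0.0888 for H4C3 and 0.0641 for H4C4).

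**Figure D3:**
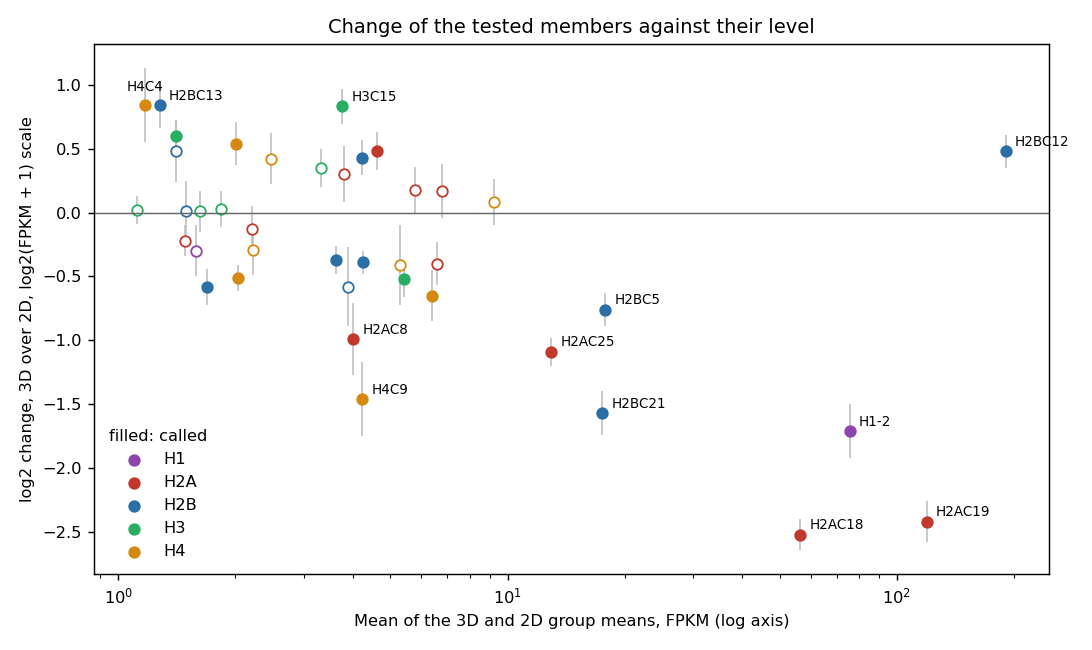
log2 change of the 40 tested members, 3D over 2D, with its SE, against the mean of the group means in FPKM on a log axis, coloured by class and filled where called. H1-2, H2AC18 and H2AC19 are far below 0, at -1.71, -2.52 and -2.42, while H2BC12 at the far right is above 0, at 0.48.

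The largest values carried most of the difference in total. The 4 most abundant members, H2BC12, H2AC19, H1-2 and H2AC18, held 67.4% of all histone FPKM in 3D and 74.8% in 2D. The other 65 members summed to 149.8 ± 9.26 FPKM in 3D and 193.4 ± 8.23 FPKM in 2D, a log2 ratio of -0.37, against -0.74 with all members. Leaving out H2BC5 and H2BC21 as well, the remaining 63 summed to 128.6 ± 7.18 FPKM in 3D and 144.0 ± 5.8 FPKM in 2D, a log2 ratio of -0.16. The sums of the 65 and of the 63 members were still lower in every 3D library.

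The members lie in clusters, which differed in their sums. The 11 members of the first chromosome 1 cluster, at chr1:149782689-149887965, which holds H2AC18, H2AC19 and H2BC21, summed to 87.2 ± 9.96 FPKM in 3D and 346.9 ± 48.5 FPKM in 2D, lower in every 3D library, with a log2 ratio of -1.99. Within it H3C15 rose, 3 genes fell and 4 of the 8 tested did not pass. The 55 members of the chromosome 6 cluster, which holds H2BC12 and H1-2, summed to 364.0 ± 47.0 FPKM in 3D and 401.4 ± 20.5 FPKM in 2D, with overlapping groups and a log2 ratio of -0.14. Of the 31 members tested there, 7 rose and 10 fell, while 33.3% of all genes tested rose and 18.1% fell. The pair farther along chromosome 1, H2AC25 and H2BC26, summed to 8.07 ± 0.631 FPKM in 3D and 18.2 ± 1.81 FPKM in 2D, and H4C16, alone on chromosome 12, averaged 0.543 FPKM in 3D and 0.403 FPKM in 2D.

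Many H2A and H2B genes lie head to head and share the stretch between their start sites. Of the members, 14 pairs start within 1000 bases of each other on opposite strands, 12 of them an H2A gene with an H2B gene, with gaps of 193 to 978 bases. The pairs of H2BC7 with H2AC7 and with H3C4 span the same 222 bases, since RefSeq starts H2AC7 and H3C4 at the same base. In 7 pairs both members were tested. In 1 of the 7, H2AC17 and H2BC17, both were called, and both rose, and in the other 6 only 1 partner was called. Over all genes tested, 51.4% were called in either direction. H2AC20 and H2BC21, 235 bases apart, differed most in their changes. H2AC20 had 6.2, 5.13 and 7.15 FPKM in 3D, against 6.44, 5.76 and 3.97 FPKM in 2D, and did not pass (change 0.18 ± 0.18, limma adjusted p = 0.441), while H2BC21 fell by 1.57. The difference between partners was not tested.

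Levels within a pair also differed. H2BC12 averaged 222.2 FPKM in 3D and 158.6 FPKM in 2D, while its partner H2AC12, 247 bases away, averaged 0.694 FPKM in 3D and 0.366 FPKM in 2D and was not tested. H2AC25 averaged 7.89 FPKM in 3D and 18.0 FPKM in 2D, while its partner H2BC26 averaged 0.187 FPKM in 3D and 0.202 FPKM in 2D.

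**Figure D4:**
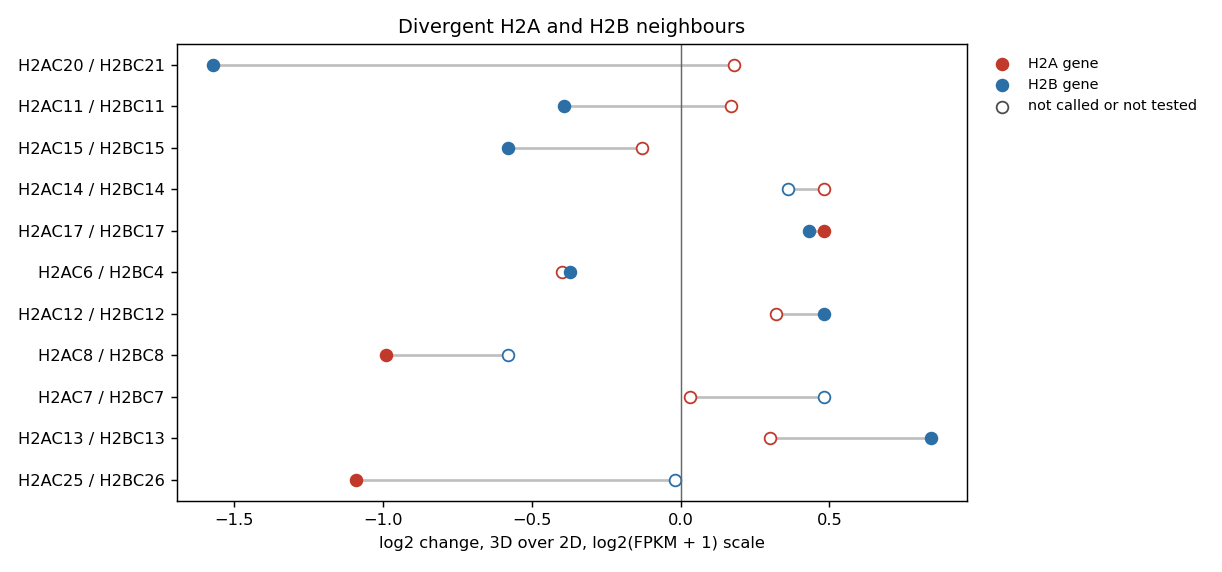
log2 change, 3D over 2D, of the partners in the 11 divergent H2A and H2B pairs with reads, red for the H2A gene and blue for the H2B gene, filled where called and open where not called or not tested. H2AC20 and H2BC21 at the top are farthest apart, with H2AC20 at 0.18 and H2BC21 at -1.57.

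The promoters of the members share short elements that differ by class. RefSeq promoters (GRCh38.p14) were found for 64 of the 69 members, and the 250 bases before the start were searched on both strands. The octamer ATTTGCAT, the site of the factor OCT1, occurs in 11 of 16 H2A, 14 of 18 H2B, 1 of 11 H3, 0 of 13 H4 and 0 of 6 H1 promoters, and in 1.66% of 27305 promoters of all genes. The H3 match is H3C4, which RefSeq starts at the same base as H2AC7. Both genes thus have the same stretch here, and its octamer is counted under H2A and under H3. The CCAAT box, searched as CCAAT, occurs in 84.4% of the members and 33.0% of all promoters, and the TATA box, searched as TATAAA, in 65.6% of the members and 11.1% of all promoters. The H1 box, searched as AAACACA, occurs in 6 of 6 H1 promoters, in none of the other members found and in 4.95% of all promoters. The motifs do not overlap each other in the stretches printed.

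The 150 bases before the start are shown for 4 members, the most abundant of H1, H2A and H2B and the H2B gene that fell furthest, 5′ to 3′ on the strand of the gene, with matches to these 4 motifs on either strand in capitals.
H1-2, chr6:26056471-26056620, minus strand: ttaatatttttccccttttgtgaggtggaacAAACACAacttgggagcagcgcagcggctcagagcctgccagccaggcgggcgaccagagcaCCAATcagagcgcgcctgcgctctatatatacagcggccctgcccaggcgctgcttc
H2AC19, chr1:149850911-149851060, plus strand: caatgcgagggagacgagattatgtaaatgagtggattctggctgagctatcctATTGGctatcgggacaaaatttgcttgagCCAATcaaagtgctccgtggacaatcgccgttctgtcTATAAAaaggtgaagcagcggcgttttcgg
H2BC12, chr6:27146859-27147008, minus strand: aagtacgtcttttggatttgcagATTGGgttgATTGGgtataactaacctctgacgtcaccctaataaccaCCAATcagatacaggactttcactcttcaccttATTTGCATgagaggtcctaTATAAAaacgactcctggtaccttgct
H2BC21, chr1:149886683-149886832, minus strand: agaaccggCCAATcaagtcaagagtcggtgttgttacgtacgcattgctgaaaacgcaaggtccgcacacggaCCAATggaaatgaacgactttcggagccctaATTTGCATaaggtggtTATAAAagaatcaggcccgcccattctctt
H2BC12, which rose, and H2BC21, which fell, both hold the octamer, a TATA box and CCAAT boxes in this stretch. H2AC19 holds CCAAT boxes and a TATA box without an octamer, and H1-2 holds an H1 box and a CCAAT box. A match is a description of these letters and no evidence that a factor binds there.

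The length of the gene model behind an FPKM also varied. The lengths worked out from the values were 386 to 797 bases for 49 members, about the size of the tail-less mRNA, and 1033 to 7530 bases for 17 members, which includes sequence past the stem-loop or further exons. Of 12 tested members with long models, 1 rose and 8 fell, with a median log2 change of -0.46. Of 28 tested members with short models, 7 rose and 6 fell, with a median of 0.02. Over all genes tested, 33.3% rose and 18.1% fell, with a median of 0.14. Shares for genes of like model length were not worked out. The member sums of both kinds of model were lower in every 3D library, at 64.0 ± 6.41 FPKM in 3D and 110.1 ± 6.66 FPKM in 2D for the long models and 395.8 ± 50.9 FPKM in 3D and 656.7 ± 63.7 FPKM in 2D for the short ones.

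RNAs that have no poly(A) tail at all were read out beside the histone genes, since poly(A) enrichment should remove them. Of 30 such RNAs, 10 were tested, with a median log2 change of 0.51. Of these 10, 4 rose, 0 fell and 6 did not pass, while 33.3% of all genes tested rose and 18.1% fell. The summed FPKM of the 30 RNAs was 1824 to 3493 in 3D and 1418 to 2409 in 2D, so the groups overlapped and libraries of 1 group varied widely. RN7SK, the 7SK RNA that restrains transcription elongation, had 321.7, 196.9 and 81.3 FPKM in 3D, against 78.7, 75.5 and 48.0 FPKM in 2D (change 1.38 ± 0.47, limma adjusted p = 0.0456). RPPH1, the RNA of RNase P, had 82.1, 47.9 and 24.3 FPKM in 3D, against 19.5, 22.6 and 10.3 FPKM in 2D (change 1.41 ± 0.46, limma adjusted p = 0.0365). RMRP, the RNA of RNase MRP, had 97.9, 55.2 and 20.8 FPKM in 3D, against 37.2, 47.6 and 33.1 FPKM in 2D, and did not pass (limma adjusted p = 0.632). SNORD3A averaged 2.64 FPKM in 3D and 0.545 FPKM in 2D, and RNU5D-1 averaged 2.33 FPKM in 3D and 0.614 FPKM in 2D, from 95 and 15 reads in all. Both met the minimum for a test through the 3D group alone, so that 2 of the 4 rises carry that choice with them. The count of 4 calls fell to 2 without 3D replicate 1 and without 2D replicate 1 or 3. What part a differing share of RNA without a tail had in the histone values was not tested.

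The genes that switch on, process and carry histones mostly rose or did not pass, and several of them are S phase genes themselves. Of 12 genes of histone transcription tested, 7 rose, 0 fell and 5 did not pass, with a median log2 change of 0.42. NPAT, the coactivator of histone genes at the histone locus body, averaged 2.11 ± 0.109 FPKM in 3D and 1.54 ± 0.103 FPKM in 2D and rose by 0.29 ± 0.09 (limma adjusted p = 0.0244). CASP8AP2, or FLASH, which acts in histone mRNA processing, averaged 5.56 ± 0.27 FPKM in 3D and 2.14 ± 0.166 FPKM in 2D and rose by 1.06 ± 0.09 (0.000336). CDC25A, the phosphatase that activates CDK2, rose by 1.75 and the cyclin CCNE2 by 1.48 (limma adjusted p = 0.000313 and 0.000398). HINFP, the H4 gene transcription factor, averaged 1.82 FPKM in 3D and 1.83 FPKM in 2D and did not pass (0.949).

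Of 17 tested genes of histone mRNA 3′ end processing and translation, 10 rose, 0 fell and 7 did not pass, with a median of 0.50. SLBP had 18.2, 16.4 and 14.0 FPKM in 3D, against 12.0, 11.9 and 9.62 FPKM in 2D, and rose by 0.50 ± 0.13 (limma adjusted p = 0.0168). ZNF473, which bridges SLBP and the U7 particle, averaged 1.59 FPKM in 3D and 0.814 FPKM in 2D and met the minimum for a test through the 3D group alone. LSM10, a U7-specific protein, averaged 9.2 FPKM in 3D and 4.19 FPKM in 2D and rose by 0.96 (0.0017), while its partner LSM11 averaged 3.34 FPKM in 3D and 3.97 FPKM in 2D and did not pass (0.219). The cap-binding protein NCBP1, its partner SRRT and the endonuclease CPSF3 rose by 1.17, 0.81 and 0.89 (limma adjusted p = 0.0004, 0.000944 and 0.00104).

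Of 15 tested genes of histone mRNA decay, 6 rose, 0 fell and 9 did not pass, with a median of 0.24. ERI1, the nuclease that trims the stem-loop end, averaged 7.39 FPKM in 3D and 4.48 FPKM in 2D and rose by 0.61 (limma adjusted p = 0.00156), and EXOSC10 and UPF1 rose by 0.59 and 0.39 (0.00114 and 0.0159). Of 18 tested histone chaperones and supply factors, 14 rose, 2 fell and 2 did not pass, with a median of 0.86. NASP, a carrier of H3 and H4, averaged 21.2 FPKM in 3D and 9.27 FPKM in 2D and rose by 1.11 (limma adjusted p = 0.000324). CHAF1A and CHAF1B, subunits of the CAF-1 complex that deposits H3 and H4 behind the fork, rose by 1.38 and 1.47 (0.000267 for both), and MCM2 of the replicative helicase rose by 1.80 (0.000218). ASF1B was at 0.177 FPKM or below in every library and was not tested.

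Genes of S phase itself, 29 tested, counted 27 that rose, 0 that fell and 2 that did not pass, with a median log2 change of 1.17. MCM3, CLSPN and CDC6, which license and guard replication forks, rose by 2.00, 1.73 and 2.02 (limma adjusted p = 0.000185, 0.000185 and 0.000218). Of 15 genes of G2 and mitosis, 10 rose, 0 fell and 5 did not pass, with a median of 0.54, among them the kinesin KIF11, the cyclin CCNB1 and the kinase BUB1 at 0.87, 0.68 and 0.62 (0.000613, 0.00193 and 0.00202). These counts read against 33.3% of all tested genes that rose. In each of histone transcription, 3′ end processing, S phase and the replacement variants, 1 of the counted rises met the minimum for a test through the 3D group alone (CCNE1, ZNF473, GINS3 and MACROH2A2). Where 0 genes of a list fell, limma counted 0 lower at an unadjusted p under 0.05 for histone transcription, 3′ end processing, S phase and G2 and mitosis, 1 for decay and 1 for the RNAs without a tail, and voom on the worked-out reads called 0 lower in each. Of the 40 histone members tested in the same libraries, 8 rose, 14 fell and 18 did not pass. H2BC12 was among the rises, and H1-2, H2AC18, H2AC19 and H2BC21 were among the falls.

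**Figure D5:**
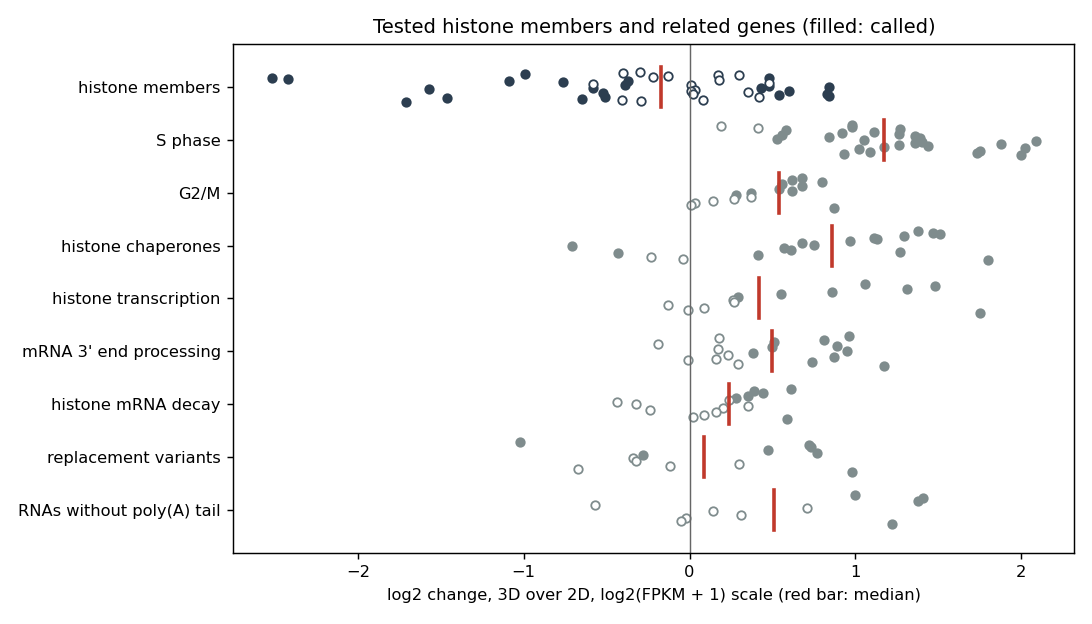
log2 change, 3D over 2D, of the 40 tested histone members (top) and of the tested genes of 8 related lists, each point a gene, filled where called, with the median as a red bar. The median of the histone members is -0.18, and the medians of the other lists run from 0.09 for replacement variants to 1.17 for S phase.

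Most replacement histone variants are made throughout the cell cycle from polyadenylated mRNAs, though this does not hold for every gene of the list. Of the 12 tested, 5 rose, 2 fell and 5 did not pass, with a median log2 change of 0.09. Over all genes tested, 33.3% rose and 18.1% fell. H2AX, the variant phosphorylated at DNA breaks, had 104.2, 81.8 and 76.8 FPKM in 3D, against 56.4, 50.8 and 44.9 FPKM in 2D, and rose by 0.77 ± 0.15 (0.00436). MACROH2A1 and H2AZ2 rose by 0.98 and 0.72 (0.000324 and 0.000751). H2AZ1 averaged 49.0 FPKM in 3D and 38.7 FPKM in 2D, H3-3A averaged 3.31 FPKM in 3D and 4.4 FPKM in 2D, and H3-3B averaged 21.7 FPKM in 3D and 23.5 FPKM in 2D, and none of these passed (limma adjusted p = 0.255, 0.073 and 0.461).

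The libraries and their labels were read against marker lists. Across the genes tested, the correlation was 0.968 to 0.981 between libraries of a group and 0.886 to 0.92 between libraries of different groups. Of 10 osteoblast lineage markers 3 were tested, and COL1A1, SPARC and TWIST1 were present, with COL1A1 at 43.7 FPKM in 3D and 8.28 FPKM in 2D (rose by 2.27, limma adjusted p = 0.000267), while SP7, IBSP, ALPL and BGLAP were below 1 FPKM in every library. SPARC and TWIST1 did not pass (0.432 and 0.113). Of 5 haematopoietic markers, summing to 3.06 to 5.45 FPKM in 3D and 16.9 to 23.2 FPKM in 2D, CD68 fell by 2.20 (0.000313), CD14 did not pass (0.618), CD3E was at 0 and PTPRC, which defines leukocytes, was at 0.0337 FPKM or below in every library. Endothelial, epithelial and adipocyte markers summed to at most 0.385, 1.77 and 1.44 FPKM in any library, and EPCAM, the 1 of these tested, did not pass (0.889).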

How the data were processed

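Libraries of poly(A)-enriched RNA (3 from 3D and 3 from 2D culture, per the labels' protocols) were sequenced, and the deposited table gives FPKM for each. FastQC, fastp, HISAT2, StringTie, edgeR and GRCh38 are named without roles, per the submitters' processing notes. No source used here gives the annotation release, the strandedness or the counting of reads that match several genes.

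The members and lists were chosen with earlier results of these data known. Genes at 1 FPKM or more in 3 or more libraries were compared as log2(FPKM + 1) in R 4.3.3 with limma 3.58.1, using lmFit and a robust, trended eBayes (statmod 1.5.0), over all 6 libraries without covariates, 2-sided, with Benjamini-Hochberg adjustment over 12843 genes. Changes on this scale understate those of low genes, and SE is that of the fit. An exact permutation test of 3 against 3 cannot go below p = 0.1. The test was tested on simulated data. Log2 ratios of sums are of mean FPKM, over all members of a class, without a test. Named are the 4 highest members of each class, further members called, from each list the 3 genes lowest in adjusted p, and a fixed set of histone factors and variants; a gene that this rule takes in is not reported here. H2AC20, H2AC12 and H2BC26 were named as partners after their values were seen.

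Reads were worked out as whole multiples, within 0.01 reads, of what 1 read gives in each library. A gene length was found for all 33243 genes above 0, though genes with few reads can meet this by chance; 446 of 500 real rows and 0 of 500 mixed rows had one up to 20000 bases. The 3D libraries held 13316210 to 16343365 reads and the 2D libraries 13609415 to 14207147, and intervals for counting error are not given. Lengths equalled the RefSeq span for 41 of 66 members. Symbols came from a name table with 62625 of the IDs. Positions are RefSeq's (GRCh38.p14). Of the members, 4 (H2AC18, H2AC19, H3C2 and H3C3) are not in GENCODE 29 by ID and were matched to its models by older symbols. Shared exons were looked up for the other 65. Alternatives were other scaling, pseudocount and filters, voom, the replicate block and each library left out.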

Additional observations from a re-analysis of the deposited data

How the results depend on the processing

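Of the 22 calls, 13 (10 lower, 3 higher) stayed past the threshold in every setting that tested the gene, and 9 were lost in some. Among the 3 higher, H2BC13 met the minimum for a test through the 3D group alone. No called member changed sign. The count of members higher and lower was 3 and 15 with median-ratio factors (3148 and 3148 of all genes). Without a filter it was 5 and 10 of 66 (4458 and 2274 of 33243 genes). At a minimum of 5 FPKM it was 2 and 8 of 14 (2134 and 1319 of 5715 genes). Among GENCODE 29 protein-coding genes it was 8 and 12 of 36 (3621 and 1868 of 9983 genes). With voom it was 5 and 13 (4298 and 2374 of all genes). A pseudocount of 0.1 gave 8 and 14 (4232 and 2301 of all genes). Leaving out 1 library gave 4 to 9 higher and 10 to 15 lower (3475 to 4065 and 1947 to 2182 of all genes). The 4 calls of RNAs without a tail became 2 without a filter, at 5 FPKM and with voom, 0 among protein-coding genes, and 2 to 6 with 1 library left out. The class log2 ratios moved by more than the replicate spread without the highest member (H1 -0.13, H2A -1.31, H2B -0.73, H3 0.56), in reads not divided by length (H2A -1.54, H2B -0.24) and, for H2A, at -0.30 with GENCODE 29 protein-coding members, which leaves out H2AC18 and H2AC19. With 1 library left out, the ratios ran from -1.83 to -1.54 for H1, -1.95 to -1.78 for H2A, 0.09 to 0.27 for H2B, 0.15 to 0.31 for H3 and -0.36 to -0.19 for H4. Signs of uncalled changes turned for 7 tested members in some setting, 5 of them with median-ratio factors. Of the named ones, H3C2 was at -0.09 and H4C14 at -0.08 with median-ratio factors, and with 1 library left out H3C2 ran from -0.07 to 0.13, H4C14 from -0.04 to 0.24 and H2AC11 from -0.05 to 0.33. The others were H2BC9, H3C3, H3C13 and H2AC15. Beyond what the settings themselves change, the cause was not tested.

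The replicate numbers are not said to pair libraries, and deviations of same-numbered libraries correlated at 0.0837, -0.0172 and 0.184, with 3D replicate 1 closer to 2D replicate 2 (0.104). With a replicate block, 8 members were higher and 14 lower, the same number as without it, and 4291 and 2382 of all genes. Under the block H2AC17 and H4C3 did not pass (limma adjusted p = 0.0578 and 0.0579), and H2BC7 and H3C8 did (0.0311 and 0.0453).

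As few as 40 reads over all 6 libraries stood behind a tested member, and the smallest change detectable at that depth was not measured.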

Other observations

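The replacement linker histone H1-10 stood apart within both groups. It had 50.7, 45.8 and 1.89 FPKM in 3D replicates 1 to 3, against 102.2, 92.4 and 1.94 FPKM in 2D replicates 1 to 3, so replicate 3 of each group was far below the other replicates of its group (limma adjusted p = 0.76). It was named after its values were seen.

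H4C16, which lies outside the histone clusters, had 0.478, 0.575 and 0.577 FPKM in 3D, against 0.265, 0.418 and 0.525 FPKM in 2D, from 185 reads over a model of 4536 bases. H2BC26, with the longest model of the members at 7530 bases, had 0.149, 0.202 and 0.21 FPKM in 3D, against 0.188, 0.233 and 0.186 FPKM in 2D. Both groups overlapped for each gene.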
